A study of Mus musculus with 8 samples.

Results

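The sensors and signalling factors of the interferon response examined here were 9 genes chosen by name as rows of the gene count table, out of 53921 rows that name a gene. They are Ddx58, Ifih1, Dhx58, Mavs, Stat2, Irf9, Irf7, Irf3 and Irf1. All 9 were found, and all 9 passed the filter on low counts that left 15324 genes for testing. Their levels were measured by RNA-seq in mouse induced cardiomyocytes on day 5, cells that arise when fibroblasts are pushed towards the identity of heart muscle. Every library came from cells given MGT, the usual short name of the reprogramming factors Mef2c, Gata4 and Tbx5, together with a lentivirus that delivers a short hairpin RNA. The 2 libraries labelled shNT carry the hairpin taken here as the control, and the 2 labelled shGrhl3 carry a hairpin against Grhl3, a Grainyhead-like transcription factor. The cell type label adds the word Neo, which the labels do not explain, and they give no strain, age or origin of the cells. Both arms had therefore received virus, and cells without virus were not analysed here. Whether replicate libraries stem from separate cultures is not labelled, and p-values therefore reflect library-to-library spread alone, part or all of which may be technical. The series title sets the question of how Grhl3 acts on the extracellular matrix and on the conversion of fibroblasts to cardiomyocytes. The interferon genes are read here only as differences between the shGrhl3 and shNT libraries. What part of a difference comes from the hairpin, the amount of virus or the culture was not tested.

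Cells detect viral RNA in the cytoplasm with helicases of the RIG-I family. Ddx58 encodes RIG-I itself, Ifih1 encodes MDA5, and Dhx58 encodes LGP2, a relative without the signalling domains of the other members. RIG-I and MDA5 signal through Mavs, an adaptor on the mitochondrial membrane, to kinases that activate the transcription factors Irf3 and Irf7, which switch on type I interferon genes. Secreted interferon then acts through its receptor and the kinases Jak1 and Tyk2 to assemble ISGF3, a complex that holds Stat2 and Irf9 and binds interferon-stimulated response elements. Several of the sensors and factors are themselves induced by interferon, whereas Mavs and Irf3 are known for steady expression in most cells.

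Levels are given as CPM, the counts of a gene scaled to a common library total. The deposited totals ranged from 16104243 to 19823397 counts per library. Reads of the 18S ribosomal RNA gene Rn18s took 0.573% and 2.00% of counts in shNT but 0.0959% and 0.156% in shGrhl3, and the same 6 of the 9 genes passed when the ribosomal rows were left out. Grhl3 was low in every library, at 31 and 14 counts in shNT against 11 and 19 in shGrhl3, and the groups overlapped. Its log2 fold change of shGrhl3 against shNT was -0.72 (SE 0.53, 95% interval -1.81 to 0.37, edgeR quasi-likelihood adjusted p = 0.311), so a fall of the targeted mRNA was not detectable at this depth. Of the reprogramming factor genes, Tbx5 and Gata4 fell (log2 fold changes -0.31 and -0.23), and Mef2c did not pass (-0.37). The shGrhl3 libraries lay far apart for Mef2c, at 249 and 364 CPM. It passed with the replicate number as a block (edgeR adjusted p = 0.0174), and its estimate ranged from -0.65 to -0.12 with a library left out. The Gata4 call was lost in 5 of 16 alternatives and the Tbx5 call in 1. Their part in the interferon genes was not tested. Of 12 cardiomyocyte markers all 12 were tested, 6 rose, 1 fell and 5 did not pass. Myh6 rose most, from 20.6 ± 0.284 CPM in shNT to 251 ± 14.0 in shGrhl3 (SD, n = 2, log2 fold change 3.61). The marker that fell was Myl4 (-0.32). Tnnt2, cardiac troponin T, did not pass, with 3214 ± 112 CPM (SD, n = 2) in shNT against 3208 ± 146 in shGrhl3. Of 12 fibroblast markers tested, 6 fell, 2 rose and 4 did not pass. Pdgfra, a growth factor receptor gene of fibroblasts, had a log2 fold change of -1.14, whereas the collagen gene Col1a1 rose from 4201 ± 58.5 to 6084 ± 588 CPM. Leukocyte markers differed between the arms. Of 15 tested markers on a list of 22, 13 fell, 1 rose (Csf1r) and 1 did not pass (Mrc1). Over all genes tested, 18.1% fell and 17.2% rose. Levels of the leukocyte markers summed to 683 and 939.5 CPM in shNT, against 158 and 127 CPM in shGrhl3. Most of this came from Lyz2, the lysozyme of myeloid cells. In bulk RNA, fewer cells of a type and less RNA per cell cannot be told apart.

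Of the 9 genes, 6 fell in shGrhl3 cells, 0 rose and 3 did not pass the test. Over all genes tested, 18.1% were lower and 17.2% were higher at the same threshold, an adjusted p of 0.05, which makes 35.3% in either direction. The 6 that fell were the 3 RNA sensors Ddx58, Ifih1 and Dhx58, the ISGF3 subunits Stat2 and Irf9, and the interferon-inducible factor Irf7. The adaptor Mavs and the factors Irf3 and Irf1 were those that did not pass. The median log2 fold change of the 9 was -0.51, against -0.01 over all genes tested. In 7 of the 9 the shGrhl3 libraries lay wholly below the shNT libraries, a state found for 33.7% of all genes tested (66.5% had groups that did not overlap in either direction).

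**Figure D1:**
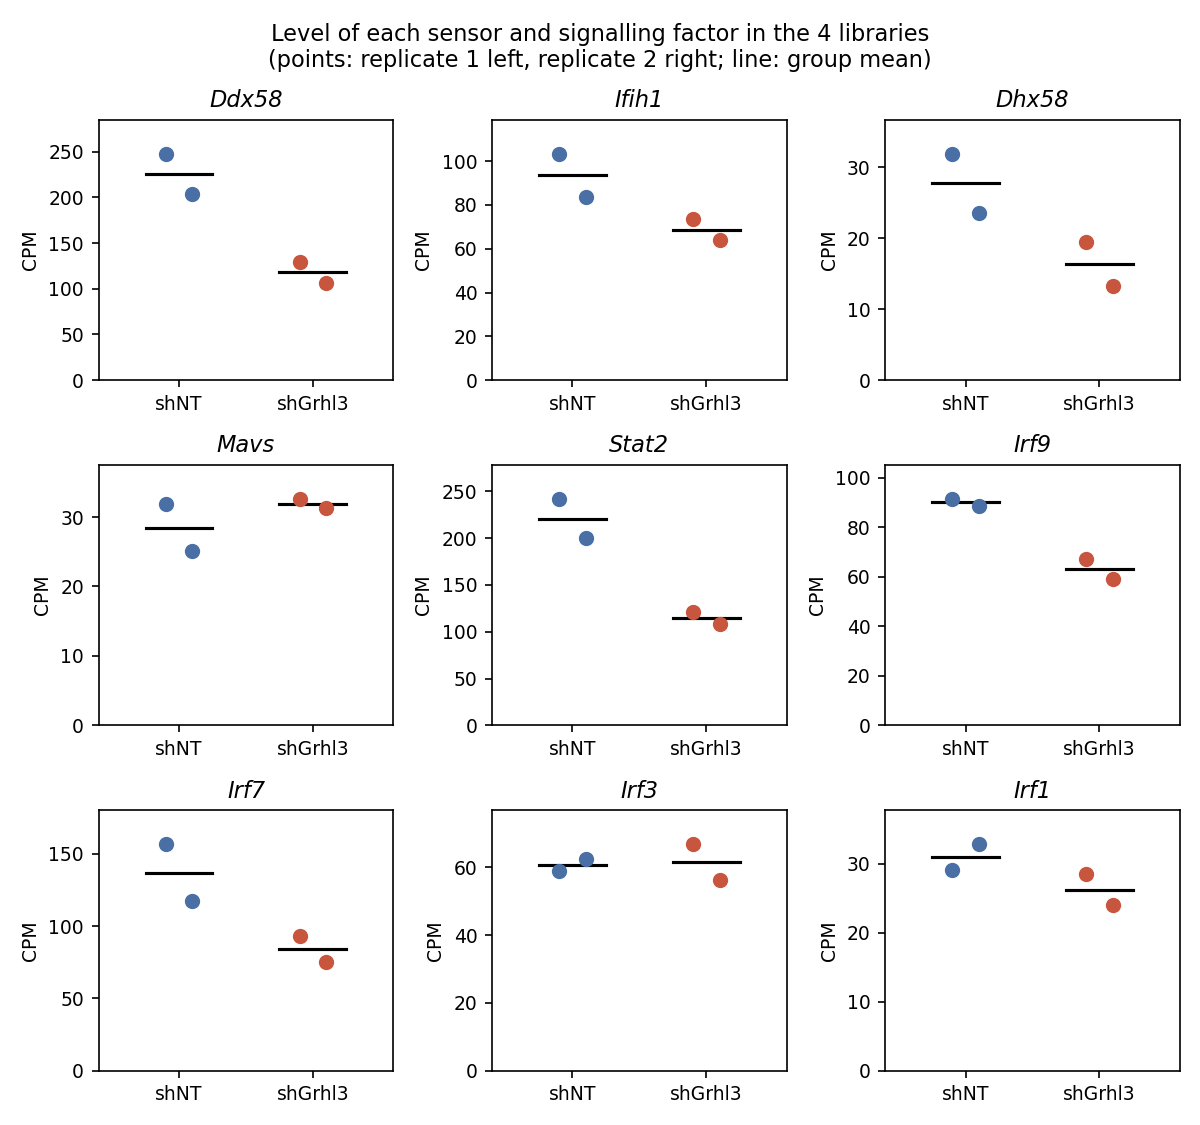
Level of each of the 9 genes in CPM (vertical axes, each starting at 0) in the 2 shNT libraries (blue) and the 2 shGrhl3 libraries (red). Points are libraries, with replicate 1 on the left and replicate 2 on the right, and lines are group means. For Ddx58, Ifih1, Dhx58, Stat2, Irf9, Irf7 and Irf1 both red points lie below both blue points, whereas those of Mavs and Irf3 overlap.

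The start regions of these genes were read for the letters that interferon-activated factors are known to bind. Windows of 300 bases, with 250 before and 50 from the annotated start on, were taken from RefSeq on GRCm38.p6, the assembly behind mm10, and 10 were found for 8 of the 9 genes, with a pair each for Irf9 and Irf1. Dhx58 had none in the table. An ISRE-like motif (GAAA, then 2 bases of any kind, then GAAA) was searched on both strands. A GAS-like motif, TTCNNNGAA, which reads alike on both strands, was searched as well, and no match of one lay over a match of the other in the windows shown. The ISRE-like letters occurred in the windows of Ddx58, Ifih1 and Stat2, which all fell, and the GAS-like letters in 1 window of Irf1. Irf9 and Irf7 also fell, and their windows held neither motif. The 4 windows with a match are printed 5′ to 3′ on the strand of the gene, with the match in capitals, to show where it lies.
Ddx58, minus strand, chr4:40239776-40240075: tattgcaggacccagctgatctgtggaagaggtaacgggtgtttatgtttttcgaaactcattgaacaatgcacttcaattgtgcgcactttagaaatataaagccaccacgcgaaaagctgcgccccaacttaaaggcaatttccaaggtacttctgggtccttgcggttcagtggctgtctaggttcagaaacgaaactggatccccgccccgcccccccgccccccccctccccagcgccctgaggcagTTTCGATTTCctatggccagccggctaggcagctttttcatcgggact
Ifih1, minus strand, chr2:62646206-62646505: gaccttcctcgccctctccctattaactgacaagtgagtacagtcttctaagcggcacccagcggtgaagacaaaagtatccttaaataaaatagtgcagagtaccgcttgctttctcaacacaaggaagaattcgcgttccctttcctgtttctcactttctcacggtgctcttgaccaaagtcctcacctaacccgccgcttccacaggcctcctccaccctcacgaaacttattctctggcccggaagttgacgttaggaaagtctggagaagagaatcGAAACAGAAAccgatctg
Stat2, plus strand, chr10:128270248-128270547: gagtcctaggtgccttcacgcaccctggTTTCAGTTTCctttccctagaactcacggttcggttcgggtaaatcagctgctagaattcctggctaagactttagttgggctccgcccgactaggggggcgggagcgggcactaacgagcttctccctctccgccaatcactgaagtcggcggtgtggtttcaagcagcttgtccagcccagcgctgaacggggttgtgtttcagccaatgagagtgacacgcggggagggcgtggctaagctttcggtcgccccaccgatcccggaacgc
Irf1, plus strand, chr11:53769764-53770063: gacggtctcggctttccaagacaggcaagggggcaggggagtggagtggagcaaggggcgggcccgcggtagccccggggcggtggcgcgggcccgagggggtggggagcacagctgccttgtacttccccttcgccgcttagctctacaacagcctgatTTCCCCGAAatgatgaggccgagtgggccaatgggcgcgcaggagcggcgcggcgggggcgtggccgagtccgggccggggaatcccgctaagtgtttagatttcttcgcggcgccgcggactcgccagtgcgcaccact

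In Ddx58 the match begins at base 3 of the annotated transcript and reads on the opposite strand. In Ifih1 it begins at base 33 on the strand of the gene, and in Stat2 at base -222, ahead of the start, on the opposite strand. The GAS-like match of Irf1 begins at base -90. The ISRE-like letters were present in 3.44% of all 32851 windows of this length and the GAS-like letters in 8.30%. Among tested genes with a window, 402 held an ISRE-like match, with Ddx58, Ifih1 and Stat2 among them. Of the 402, 115 (28.6%) fell and 51 (12.7%) rose. Of the 10601 without it, 19.1% fell and 18.5% rose. A match describes these letters and is not a shown binding site, and the windows of Mavs, Irf9, Irf7 and Irf3 held neither motif.

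Ddx58, the gene of RIG-I (chromosome 4, 40203777 to 40239825, mm10), stood at 248 and 203 CPM in the shNT libraries and at 129 and 107 CPM in the shGrhl3 libraries. These values rest on 4747 and 3230 counts and on 2590 and 1994 counts. Both shGrhl3 libraries were low and the groups did not overlap. The mean fell from 226 ± 31.6 to 118 ± 15.9 CPM (mean ± SD of 2 libraries), a log2 fold change of -0.94 (SE 0.11, edgeR adjusted p = 1.72e-06). Its 95% interval of -1.16 to -0.71 corresponds to between 0.447 and 0.610 of the shNT level.

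Ifih1, the gene of MDA5, which is known to favour long double-stranded RNA (chromosome 2, 62595618 to 62646255), stood at 103 and 83.7 CPM in shNT and at 73.4 and 63.9 CPM in shGrhl3. The groups did not overlap, but the gap between the lower shNT library and the higher shGrhl3 library was narrow. The log2 fold change was -0.45 (SE 0.11, edgeR adjusted p = 0.00218). Without shNT replicate 1 it was -0.29 and the call was lost (adjusted p = 0.118).

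Dhx58, the gene of the regulator LGP2 (chromosome 11, 100694884 to 100704271), had the fewest counts of the 3 sensors, between 247 and 611 per library. It stood at 31.9 and 23.6 CPM in shNT and at 19.5 and 13.2 CPM in shGrhl3, with no overlap. Replicate 1 was above replicate 2 by 1.36-fold in shNT and 1.47-fold in shGrhl3. The mean fell from 27.7 ± 5.92 to 16.4 ± 4.44 CPM (mean ± SD of 2 libraries), a log2 fold change of -0.76 (SE 0.18, edgeR adjusted p = 0.00565). The estimate ranged from -1.08 without shGrhl3 replicate 1 to -0.50 without shGrhl3 replicate 2.

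The sensors did not fall by equal amounts in these libraries. Ddx58 had 2.40 and 2.43 counts per Ifih1 count in shNT, against 1.76 and 1.67 in shGrhl3. This ratio does not depend on how libraries are scaled, and its difference between groups was far larger than its spread within them. With 2 libraries a group the exact two-sided permutation test cannot give a p below 0.333, the value it gave here. The ratio of Ddx58 to Dhx58 counts overlapped between groups, at 7.77 and 8.64 in shNT and 6.62 and 8.07 in shGrhl3 (exact permutation p = 0.667). Irf7 counts per Irf9 count overlapped as well, at 1.71 and 1.32 in shNT and 1.39 and 1.27 in shGrhl3. Dhx58 counts per Ifih1 count did not, at 0.309 and 0.281 in shNT and 0.266 and 0.207 in shGrhl3. The 8 ratios formed between genes of the pathway gave exact p-values of 0.333 or 0.667, so none could pass a test of its own, before or after adjustment.

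Mavs, the mitochondrial adaptor that RIG-I and MDA5 share (chromosome 2, 131234063 to 131248025), did not follow the sensors. It stood at 31.8 and 25.1 CPM in shNT and at 32.6 and 31.3 CPM in shGrhl3, and the groups overlapped. The log2 fold change was 0.16 (SE 0.12, edgeR adjusted p = 0.340), with a 95% interval of -0.10 to 0.42 that allows a small fall or a rise of up to 1.34-fold. Counts of Ddx58 per count of Mavs went from 7.79 and 8.12 in shNT to 3.96 and 3.41 in shGrhl3.

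Stat2, the subunit that carries the activating domain of ISGF3 (chromosome 10, 128270498 to 128292853), had the lowest log2 fold change of the 9. It stood at 242 and 199.6 CPM in shNT and at 121 and 108 CPM in shGrhl3, from 2013 to 4627 counts per library. The shGrhl3 libraries lay close together and far below both shNT libraries. The mean fell from 221 ± 29.9 to 115 ± 9.71 CPM (mean ± SD of 2 libraries), a log2 fold change of -0.95 (SE 0.10, edgeR adjusted p = 8.89e-08).

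Irf9, the DNA-binding subunit of ISGF3 (chromosome 14, 55603985 to 55610030), was the tightest of the 9 among shNT libraries, at 91.4 and 88.6 CPM. It stood at 67.2 and 59.0 CPM in shGrhl3, with no overlap. The log2 fold change was -0.51 (SE 0.10, edgeR adjusted p = 0.000213). Stat2 counts per Irf9 count were 2.65 and 2.25 in shNT and 1.81 and 1.83 in shGrhl3, so Stat2 was lower relative to Irf9 in both shGrhl3 libraries.

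Irf7, the inducible factor that amplifies interferon production (chromosome 7, 141263183 to 141266499), stood at 157 and 117 CPM in shNT and at 93.3 and 74.9 CPM in shGrhl3. Replicate 1 was 1.33-fold above replicate 2 in shNT and 1.25-fold above it in shGrhl3, yet both shNT libraries lay above both shGrhl3 libraries. The mean fell from 137 ± 27.8 to 84.1 ± 13.0 CPM (mean ± SD of 2 libraries), a log2 fold change of -0.70 (SE 0.14, edgeR adjusted p = 0.00301). Without shNT replicate 1 the log2 fold change was -0.48. The call was lost with crossed replicate numbers as a block, an alternative added after seeing the data (adjusted p = 0.0735).

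Irf3, the factor that is present before infection and is switched on by phosphorylation (chromosome 7, 44997648 to 45002848), stood at 58.9 and 62.5 CPM in shNT and at 66.8 and 56.4 CPM in shGrhl3. The shNT values lay between those of shGrhl3. Its log2 fold change was 0.02, with a 95% interval of -0.19 to 0.24 (SE 0.10, edgeR adjusted p = 0.893). Irf7 counts per Irf3 count were 2.66 and 1.88 in shNT and 1.40 and 1.33 in shGrhl3.

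Irf1, a factor best known from interferon-gamma signalling (chromosome 11, 53770014 to 53778374), stood at 29.1 and 32.9 CPM in shNT and at 28.5 and 24.0 CPM in shGrhl3. The groups did not overlap, by a gap of less than 1 CPM. The log2 fold change of -0.24 did not pass (SE 0.12, 95% interval -0.49 to 0.02, edgeR adjusted p = 0.148). Without shGrhl3 replicate 1 the log2 fold change was -0.37.

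**Figure D2:**
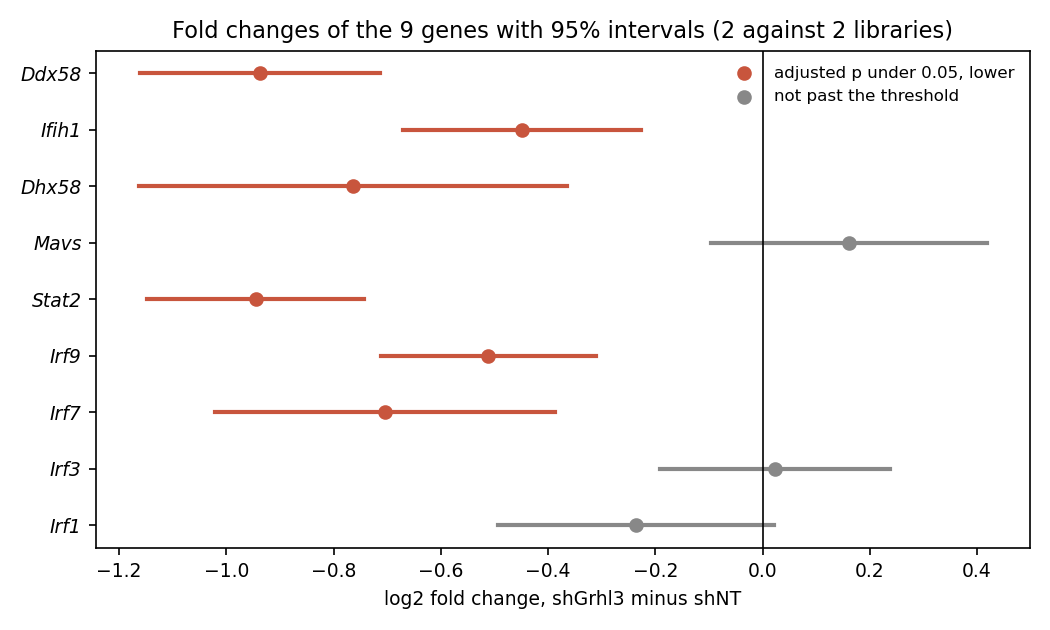
Log2 fold change of shGrhl3 against shNT (horizontal axis) for the 9 genes, with bars for 95% intervals from the quasi-likelihood fit to 2 and 2 libraries. The 6 red genes, from Stat2 at -0.95 to Ifih1 at -0.45, have intervals wholly below 0, and the grey intervals of Mavs, Irf3 and Irf1 include 0.

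**Figure D3:**
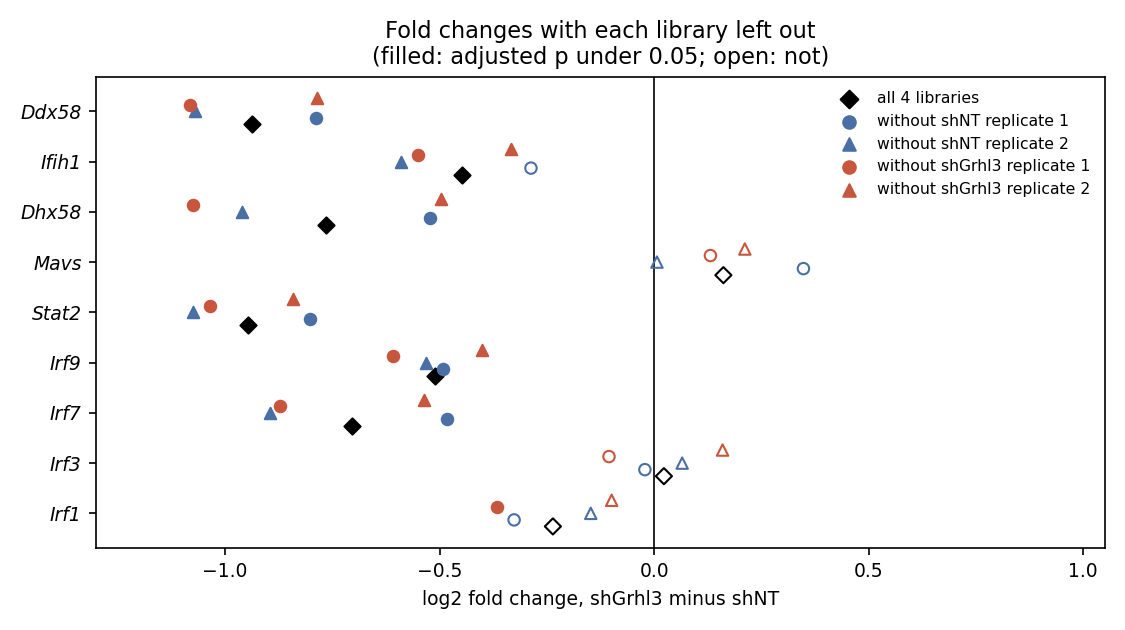
Log2 fold change of the 9 genes (horizontal axis) with all 4 libraries (black diamonds) and with each library left out in turn (blue for a shNT library, red for a shGrhl3 library). Filled symbols passed an adjusted p of 0.05: Ifih1 is open without shNT replicate 1 (-0.29), and Irf1 is filled only without shGrhl3 replicate 1 (-0.37). A group left with a lone library has no spread of its own, so filled symbols of these fits are not further support.

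The 6 genes that fell shared the same replicate order within each group. All 6 were higher in shNT replicate 1 than in shNT replicate 2, by 1.03-fold for Irf9 to 1.36-fold for Dhx58. All 6 were likewise higher in shGrhl3 replicate 1 than in replicate 2, by 1.13-fold for Stat2 to 1.47-fold for Dhx58. Mavs, which did not fall, had this order too, by 1.27-fold in shNT and 1.04-fold in shGrhl3. Irf3 and Irf1 had it in shGrhl3 (1.19-fold each) but not in shNT (0.94-fold and 0.89-fold). How many of all genes tested had this order was not counted. The summed level of the 6 that fell was 873 and 716 CPM in shNT and 504 and 426 CPM in shGrhl3. The leukocyte markers, which fell beside these genes, had the opposite order in shNT, with 683 CPM in replicate 1 and 939.5 CPM in replicate 2, and the same order in shGrhl3, with 158 CPM in replicate 1 and 127 CPM in replicate 2. Their part in the result was not tested.

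**Figure D4:**
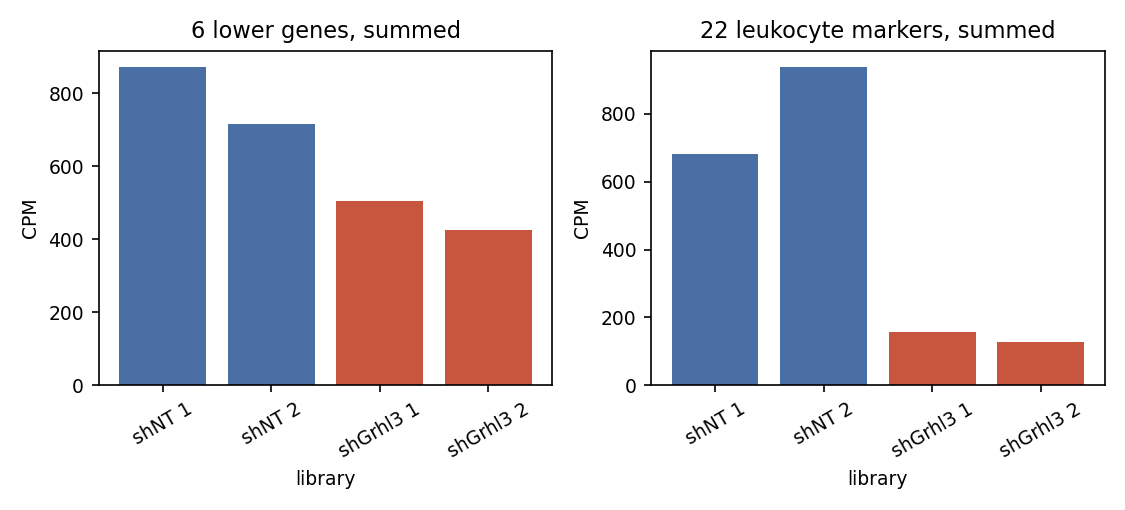
Summed level in CPM (vertical axes, from 0) of the 6 genes that fell (left) and of the 22 leukocyte markers (right) in each library, shNT in blue and shGrhl3 in red. Both sums are lower in the shGrhl3 libraries, and within shGrhl3 both are higher in replicate 1 (504 against 426 and 158 against 127 CPM). Within shNT the 6 genes are higher in replicate 1 (873 against 716 CPM) and the leukocyte markers in replicate 2 (939.5 against 683 CPM).

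The ligands that drive the pathway were close to undetected. Of 21 interferon genes listed, 19 had 0 counts in all 4 libraries, which allows up to 3 counts or 0.149 to 0.189 CPM per library for each. Ifnb1, the interferon-beta gene, had 5 and 13 counts in shNT and 6 and 0 in shGrhl3, and Ifna4 had 1 count in a single shNT library. These limits cover counting error only, and no ligand could be tested.

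Among 15 tested genes of other nucleic acid sensors, 5 fell, 0 rose and 10 did not pass, with a median log2 fold change of -0.16. The share called in either direction was near the 35.3% over all genes tested, but all 5 calls were lower. Over all genes tested 18.1% fell and 17.2% rose. Tlr3, the endosomal sensor of double-stranded RNA, stood at 69.5 and 50.9 CPM in shNT and at 36.7 and 29.5 CPM in shGrhl3 (log2 fold change -0.87, edgeR adjusted p = 0.000335). Ifi204, a DNA sensor of the interferon-inducible p200 family, fell from 78.2 ± 11.9 to 30.2 ± 6.56 CPM (SD, n = 2), and Zbp1, a sensor of left-handed nucleic acids, from 7.73 ± 2.38 to 3.06 ± 0.687 CPM. Tlr7 and Tlr13, endosomal RNA sensors typical of myeloid cells, had log2 fold changes of -4.01 and -2.33 at low levels and moved with the leukocyte markers. The part of leukocytes in these differences was not tested. Cgas, the cytosolic DNA sensor, and Eif2ak2, the kinase PKR, did not pass, with log2 fold changes of 0.24 (95% interval -0.19 to 0.67) and -0.16 (-0.35 to 0.04).

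Adaptors and kinases between sensing and interferon moved both ways. Of 23 tested, 10 fell, 2 rose and 11 did not pass (median log2 fold change -0.23). The shares over all genes tested were 18.1% lower and 17.2% higher. Tank, a scaffold of the kinase Tbk1, fell from 40.7 ± 2.76 to 23.5 ± 0.868 CPM, and Tbkbp1, another Tbk1 partner, from 10.3 ± 1.31 to 5.25 ± 1.28 CPM (SD, n = 2). Sting1, the adaptor of DNA sensing, stood at 17.6 and 20.3 CPM in shNT and 11.8 and 11.1 CPM in shGrhl3 (log2 fold change -0.72, edgeR adjusted p = 0.000600). Ikbkg, which encodes the NEMO scaffold, fell by 0.54 on the log2 scale. Traf3, the ubiquitin ligase that Mavs recruits, rose from 46.3 ± 5.62 to 73.1 ± 2.78 CPM (log2 fold change 0.65, edgeR adjusted p = 2.75e-05). Traf2 rose by 0.34, a call lost without shNT replicate 1 (0.28) and with DESeq2 (adjusted p = 0.0584). Tbk1 itself did not pass (-0.15, 95% interval -0.34 to 0.05).

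Of 15 tested genes of receptors, JAK kinases and STAT factors, 2 rose, 4 fell and 9 did not pass (median log2 fold change -0.14). The share called was also near the 35.3% over all genes tested, where 18.1% fell and 17.2% rose. Ifngr2, a chain of the interferon-gamma receptor, stood at 127 and 123 CPM in shNT and at 207 and 183 CPM in shGrhl3 (log2 fold change 0.64, edgeR adjusted p = 4.11e-06). Ifnar1, a chain of the type I receptor, rose from 105 ± 2.97 to 124 ± 6.88 CPM (log2 fold change 0.24, adjusted p = 0.0410), a call lost in 6 of 16 alternatives, among them the fits without shNT replicate 1 (0.26), without shNT replicate 2 (0.21) and without shGrhl3 replicate 2 (0.20). Stat3, Stat5b and Stat6 had log2 fold changes of -0.36, -0.50 and -0.41, the Stat3 call being lost without shNT replicate 2 (-0.31). Ifnar2, Jak1 and Tyk2 did not pass, with log2 fold changes of -0.07, -0.15 and -0.16.

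Of 7 tested relatives and binding partners of the IRF family, 3 fell, 0 rose and 4 did not pass (median log2 fold change -0.20). Among all genes tested, 18.1% fell and 17.2% rose. Irf8, typical of myeloid cells, stood at 4.28 and 5.98 CPM in shNT and at 1.95 and 2.62 CPM in shGrhl3 (log2 fold change -1.16, edgeR adjusted p = 0.00370), again beside the lower leukocyte markers. The call was lost without shNT replicate 2 (adjusted p = 0.0591). The co-repressor genes Irf2bp2 and Irf2bpl fell by 0.48 and 0.40 on the log2 scale, with Irf2bp2 at -0.29 without shGrhl3 replicate 2. Irf2 and Irf5 did not pass (0.16 and -0.20).

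Of 25 tested genes that restrain the pathway, 5 fell, 3 rose and 17 did not pass (median log2 fold change -0.08), beside 18.1% lower and 17.2% higher over all genes tested. Adar, which edits double-stranded RNA, fell from 124 ± 6.57 to 81.8 ± 3.54 CPM (SD, n = 2), and Samhd1, a nucleotide hydrolase, from 100.1 ± 4.08 to 70.5 ± 4.87 CPM. Trim21 and Nlrc5 fell by 0.80 and 0.68 on the log2 scale. The phosphatase genes Ptpn2 and Ptpn11 and the RNase H2 subunit gene Rnaseh2a rose by 0.42, 0.32 and 0.48. Without shNT replicate 1 the calls of Nlrc5, Ptpn2 and Ptpn11 were lost (-0.44, 0.34 and 0.29). That of Rnaseh2a was lost without shNT replicate 2 (0.38), without shGrhl3 replicate 2 (0.40) and with DESeq2 (adjusted p = 0.0644). Usp18, the interferon-induced brake on the type I receptor, stood at 169.6 and 126 CPM in shNT and at 86.5 and 52.7 CPM in shGrhl3. Its groups did not overlap, but its spread among replicates was wide and it did not pass (log2 fold change -1.08, SE 0.37, edgeR adjusted p = 0.150). It passed with DESeq2 (adjusted p = 0.0353) and with the replicate number as a block. Without each of the 4 libraries in turn its log2 fold change ranged from -1.49 to -0.75. Such fits drop the spread of the group left with a lone library, so no call is drawn from them. Socs1 did not pass either (-0.31), and its estimate ranged from -0.88 without shNT replicate 1 to 0.44 without shNT replicate 2.

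Target genes of interferon were mostly lower in the same libraries. Of 30 tested, 18 fell, 3 rose and 9 did not pass, beside 18.1% lower and 17.2% higher over all genes tested. The median log2 fold change of the 30 was -0.65. Ifit2, an RNA-binding antiviral protein gene, stood at 154 and 129 CPM in shNT and at 81.1 and 67.4 CPM in shGrhl3 (log2 fold change -0.93, SE 0.11, edgeR adjusted p = 4.55e-07). Bst2, the tetherin gene, fell from 364 ± 29.3 to 235 ± 21.7 CPM, Gbp2 from 43.8 ± 6.67 to 25.8 ± 2.87 CPM and the immunoproteasome gene Psmb8 from 34.6 ± 6.52 to 19.9 ± 1.71 CPM (SD, n = 2). Isg15, an interferon-induced ubiquitin-like modifier, fell from 218 ± 33.8 to 122 ± 32.9 CPM (log2 fold change -0.84, adjusted p = 0.0494), a call lost in 6 of 16 alternatives. The 3 that rose were Ifi27 (106 ± 6.31 to 180.4 ± 5.14 CPM, log2 fold change 0.77, adjusted p = 2.73e-07), the peptide transporter gene Tap1 (0.32) and Oas1g (0.67). The Tap1 call was lost without shNT replicate 2 (0.17) and without shGrhl3 replicate 1 (0.25), and the Oas1g call in 5 of 16 alternatives, among them the fits without shNT replicate 1 (0.75), shNT replicate 2 (0.60) and shGrhl3 replicate 1 (0.23).

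**Figure D5:**
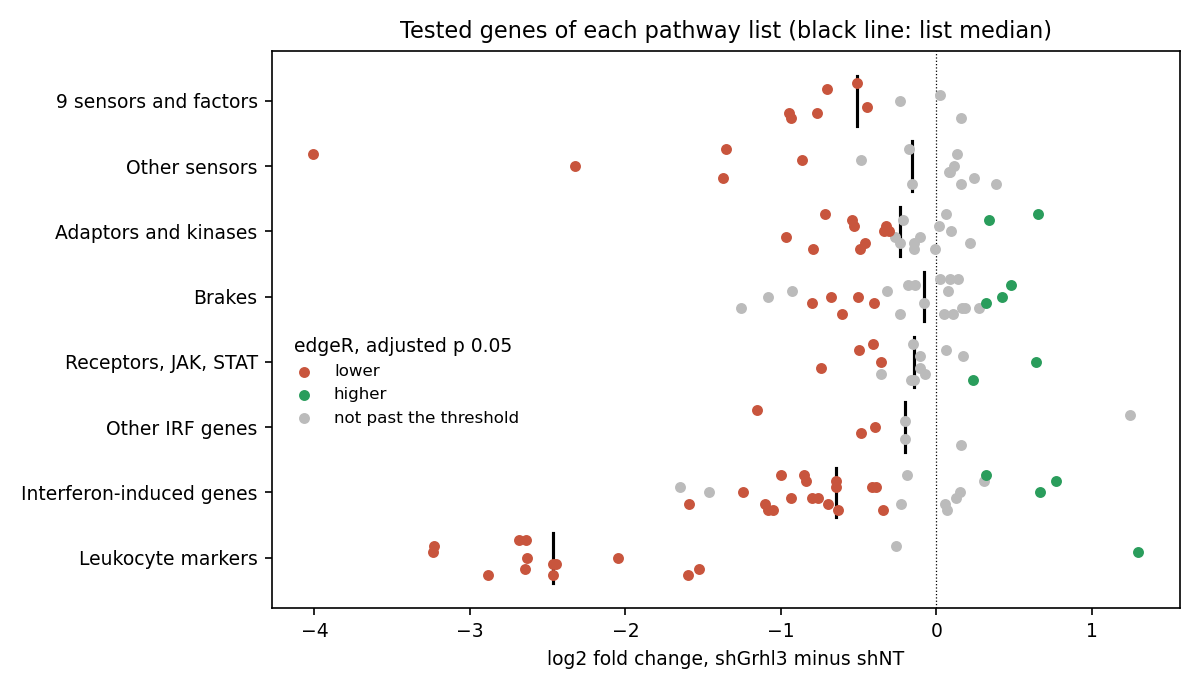
Log2 fold change of shGrhl3 against shNT (horizontal axis) for every tested gene of the 9 sensors and factors, of 6 other pathway lists and of the leukocyte markers, coloured by the call; vertical position within a row carries no meaning. Black lines are list medians, lowest for the leukocyte markers (-2.46), then the interferon-induced genes (-0.65) and the 9 genes (-0.51).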

How the data were processed

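RNA-seq counts of 4 libraries, 2 labelled shNT and 2 labelled shGrhl3, were analysed; 4 CUT&Tag samples for H3K27ac are not analysed here. The authors deposited one table of raw counts per gene. The genome build was mm10, and Bowtie2 2.2.6, HISAT2 2.0.1, cutadapt 1.9.1, ChIPseeker and MACS2 are listed without roles, per the submitters' processing notes. The counting step has a program, annotation and strand setting not given in the sources used here, so reads of overlapping genes may be merged. The columns named shGrhl1 and shGrhl2 were matched to the shGrhl3 titles, since Grhl3 is the only target named; their digits were taken for replicate numbers. Rows that name no gene held 0.00432% to 0.00872% of counts and were left out.

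edgeR 4.0.16 in R 4.3.3 was used, with filterByExpr at a minimum count of 10, TMM scaling and a robust quasi-likelihood fit without covariates (the method that needs no separate dispersion step). Tests are two-sided, with Benjamini-Hochberg adjustment over 15324 genes and a threshold of 0.05. CPM uses TMM-scaled library sizes. SEs come from the estimate and its F statistic. Libraries of a group differed beyond sampling noise (chi-square per degree of freedom 15.6 in shNT and 9.40 in shGrhl3, against 58.5 to 74.5 between groups). The fit was also run on simulated data with 200 of 15324 genes changed, far fewer than the 5402 called here. The outcome is not reported here and does not bear on the error rate at that larger share.

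The 9 genes and the pathway lists were chosen with earlier results of these data known. Named in the text are the 9 genes, a fixed set of key genes with Mef2c, Gata4 and Tbx5 among them, and further genes of the lists. The latter are up to 4 genes per list and direction with the lowest p past the threshold. Tnnt2, Myh6, Myl4, Pdgfra, Col1a1, Ifna4, Lyz2, Csf1r and Mrc1 were named after their values were seen. Some genes of the lists count in the totals but are not reported here by name. There were 16 alternatives: other scalings (DESeq2 size factors, library size only, upper quartile), filters, DESeq2 1.42.0, limma-voom (limma 3.58.1), summed rows, rRNA rows left out, each library left out, and a replicate block, and after seeing the data a crossed block and the older edgeR dispersion method. Transcript lengths were not used, so ratios, sums and rankings of counts or CPM across genes do not give relative transcript numbers. Of 52324 distinct symbols 49940 were found in the gene name table. Positions are whole RefSeq genes on GRCm38.p6.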

Additional observations from a re-analysis of the deposited data

How the results depend on the processing

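No gene of the 9 rose and none of the 6 calls reversed in any of the 16 alternatives; 5 to 7 of the 9 fell. Calls of Ddx58, Dhx58, Stat2 and Irf9 held in all 16. Leaving out 1 library gave 5 to 7 lower genes of the 9, 1761 to 2630 higher and 2074 to 2560 lower genes in all, and 42 to 52 lower and 6 to 9 higher genes of the 115 to 118 other pathway genes; such fits take the lone library to vary like the other group. The other pathway genes that rose numbered 10 with all libraries, 6 with DESeq2 and 6 without shNT replicate 1. With the replicate number as a block, 6 of the 9 fell and 5042 genes passed in all, against 5402 without it. The labels do not say that the numbers pair the libraries, and deviations of libraries with the same number correlated at -0.08 across all genes and -0.16 across genes above 10 CPM. With crossed numbers 5849 genes passed and 5 of the 9 fell, the Irf7 call being lost (adjusted p = 0.0735). The median log2 fold change of all genes lay between -0.01 and 0.02 under each scaling. At this depth no ligand gene could be tested, and Grhl3 had an SE of 0.53 on the log2 scale.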

Other observations

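Neighbouring genes within 2000 bases of the 9 were read as well, since counts of close or overlapping genes can be merged where strand is not used. Rnf31, an ubiquitin ligase subunit gene 311 bases from Irf9, fell with it, from 32.5 to 26.3 CPM (log2 fold change -0.30, edgeR adjusted p = 0.0437). Kat2a, 475 bases from Dhx58, did not pass (-0.24, adjusted p = 0.139), and neither did Phrf1, 432 bases from Irf7 (0.03, adjusted p = 0.819). Irf3 lies between Bcl2l12, 10 bases away (0.38, adjusted p = 0.116), and Scaf1, 98 bases away (-0.08, adjusted p = 0.507), and none of the 3 passed. Apof overlaps Stat2 in the annotation and had a mean of 0.173 CPM in shNT and 0 in shGrhl3, and the lncRNA genes Gm39839 and Gm38483, which overlap Ifih1 and Dhx58, are not rows of the table.

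Genes with a GAS-like match in their start window were also counted. Of 887 tested genes with the match 21.9% fell and 17.0% rose, and of 10116 without it 19.2% fell and 18.3% rose.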
